A study of Mus musculus with 16 samples.

Results

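FcγRIIB, the product of *Fcgr2b*, is the inhibitory receptor for IgG on B cells, macrophages and other myeloid cells, and mice without it can develop lupus with immune complex glomerulonephritis. STING relays the sensing of cytosolic DNA to type I interferon production. The kidney in this disease takes up monocytes, macrophages and other leukocytes from blood, so a change in a transcript can come from the kidney's own cells or from cells that entered it.

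The comparison set 8 kidneys lacking *Fcgr2b* against 8 that carry it, which together are the 16 arrays of the series, with the *Sting* genotype as a covariate. The 8 arrays lacking *Fcgr2b* were 4 Fcgr2b-ko mice and 4 double-deficient mice (Fcgr2b-ko, Sting-ko). The 8 arrays carrying *Fcgr2b* were 4 WT mice and 4 Sting-ko mice. All mice were labelled as 6 months old. Both groups lacking *Fcgr2b* were labelled as 129/C57BL/6 and both groups carrying it as C57BL/6, so strain and *Fcgr2b* genotype cannot be told apart. The labels give the Fcgr2b-ko mice as lupus mice and name no change of *Sting* in them. The *Sting* allele is goldenticket, a functional knockout. The study's heatmaps head the Fcgr2b-ko columns with 1 goldenticket allele, which the labels do not give. The term *Sting* unchanged below follows the labels, so Fcgr2b-ko and WT mice may also differ by this allele. Each array held RNA of 1 mouse. The question was which transcripts changed without *Fcgr2b* in the same way whether STING was present or not.

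Signals are log2 intensities set to 0 at each array's 75th percentile, so that 0 is a fairly bright probe. The lowest signal well above background lay between -5.45 and -4.16. A probe counted as called where limma's p, after Benjamini-Hochberg adjustment, was under 0.05 and the groups differed at least 2-fold. The number of probes well above background was 28443 to 35566 per array. The kidney genes *Umod*, a thick limb protein, and *Slc34a1*, a phosphate transporter of the proximal tubule, were well above background on all 16 arrays. A Y-linked signal at the level of male kidneys was present on 3 of the 8 arrays lacking *Fcgr2b* and on 3 of the 8 carrying it. Each of the 2 slides held 4 arrays of each.

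The signal of *Fcgr2b* itself was lower on the arrays lacking it but did not reach background. Its brighter probe read -0.40 to 0.70 (median 0.04) on those arrays and -0.19 to 2.13 (median 1.34) on the arrays carrying it, and the groups overlapped. The log2 difference was -1.14 (SE 0.25), and its adjusted p in limma was 0.35. The second probe gave -0.90 (SE 0.23). Where either probe lies relative to the deleted part was not known here. *Sting1* did not separate the *Sting* genotypes, and its pooled difference was 0.61 (SE 0.50, unadjusted p = 0.235 in limma).

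The arrays of the Sting-ko group differed among themselves for *Fcgr2b* and *Ifi202b*. Sting-ko replicate 4 read -0.19 for *Fcgr2b*, within the range of the arrays lacking the gene. *Ifi202b*, an interferon-inducible DNA-binding protein of the Ifi200 family, was not well above background on any WT array or on Sting-ko replicates 1 and 3, but was well above background on Sting-ko replicates 2 and 4. The called genes are therefore also given without Sting-ko replicates 2 and 4, a choice made after the data were seen.

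Without *Fcgr2b*, 22 of 35629 probes were called (0.0617%), of which 16 were higher (0.0449%) and 6 were lower (0.0168%). All 22, chosen on these same arrays, had a difference of at least 2-fold in the same direction in both *Sting* genotypes. They stood for 15 named genes, 12 higher and 3 lower, and for 5 probes without a symbol. The genes that were higher encode myeloid receptors and enzymes (*Clec4e*, *Acod1*, *Fpr1*, *Fpr2*, *Cd300e*, *Treml4*), ribonucleases of the eosinophil-associated family (*Ear1*, *Ear2*, *Ear10*, *Rnase2a*), a lymphocyte sphingosine receptor (*S1pr5*) and *Ifi202b*. The genes that were lower were *Apoa2*, *Dusp23* and *Cfap126*. The 2 sets of 8 arrays did not overlap for 19 of the 22 probes, and over all probes tested 25 did not overlap (0.0702%), 21 higher (0.0589%) and 4 lower (0.0112%). Without adjustment 563 probes had a p under 0.05 (1.58%). Some mice share a number in their animal label, within WT and between Fcgr2b-ko and double-deficient mice. With that number as a random block only *Acod1*, *Clec4e* and *Cfap126* were called, and the calls of the other genes below were lost. In the whole kidney, more cells of a type and more RNA per cell cannot be told apart.

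**Figure D1:**
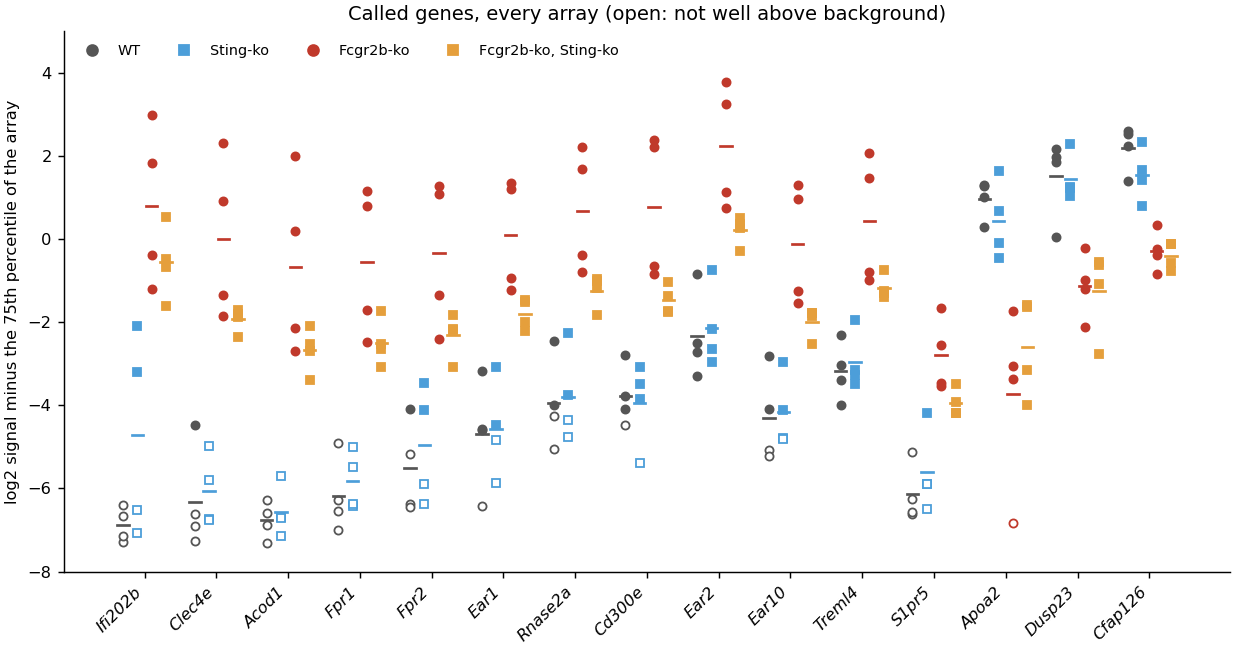
Log2 signal (vertical axis, 0 at each array's 75th percentile) of the 15 called genes on all 16 arrays. Points are mice, bars are genotype means, circles have *Sting* unchanged, squares are Sting-ko, and open symbols were not well above background. Every array lacking *Fcgr2b* lies above every array carrying it for 11 of the 12 genes that were higher, *S1pr5* being the exception, and below for the 3 that were lower.

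Several pattern-recognition and chemoattractant receptors of myeloid cells were higher. *Clec4e* encodes Mincle, a C-type lectin receptor for glycolipids and dying cells. It read -2.37 to 2.31 (median -1.75) without *Fcgr2b* and -7.27 to -4.48 (median -6.67) with it. The groups did not overlap, and only 1 of the 8 arrays carrying *Fcgr2b*, a WT array, was well above background. The log2 difference of *Clec4e* was 5.23 (SE 0.61, adjusted p = 0.00271 in limma). Against the Sting-ko arrays, none of which was well above background, the double-deficient arrays were at least 7.02-fold higher.

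*Acod1* encodes the enzyme that makes itaconate in activated macrophages. Its signal was -3.39 to 1.997 (median -2.33) on the arrays lacking *Fcgr2b*, all 8 of them well above background. On the arrays carrying the gene it was -7.31 to -5.69 (median -6.70), with none well above background, so it passed the filter on dim probes only through the arrays where it was high. The change was a rise of at least 8.55-fold (adjusted p = 0.00271 in limma). *Fpr1*, a receptor for formylated bacterial and mitochondrial peptides, showed the same pattern at -3.09 to 1.16 against -6.997 to -4.92, a rise of at least 9.10-fold (adjusted p = 0.00491 in limma). Its paralog *Fpr2* read -3.08 to 1.28 against -6.46 to -3.47 without overlap, and its difference was 3.91 (SE 0.65, adjusted p = 0.0300 in limma). A second, brighter probe of *Fpr2* gave 1.80 and was not called (adjusted p = 0.435 in limma), although its groups did not overlap either.

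*Cd300e* and *Treml4* encode receptors of patrolling monocytes. *Cx3cr1*, *Spn*, *Nr4a1* and *Ace*, other listed genes of these cells, gave 1.05, 1.52, 1.17 and -0.09, and none was called. With *Sting* unchanged they gave 2.12, 2.65, 2.06 and -0.17, and in Sting-ko mice -0.02, 0.39, 0.27 and -0.01. *Cd300e* read -1.76 to 2.38 (median -0.93) without *Fcgr2b* and -5.39 to -2.79 (median -3.81) with it, a difference of 3.52 (SE 0.55, adjusted p = 0.0183 in limma). *Treml4* read -1.40 to 2.06 (median -0.88) against -4.002 to -1.94 (median -3.21), and was well above background on all 16 arrays. Its difference of 2.71 (SE 0.47, adjusted p = 0.0487 in limma) was the closest to the threshold. *S1pr5*, a sphingosine-1-phosphate receptor of NK cells and patrolling monocytes, rose by 2.50 (SE 0.41, adjusted p = 0.0252 in limma), with a single array carrying *Fcgr2b*, Sting-ko replicate 1, at the level of the lowest arrays lacking it.

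The eosinophil-associated ribonucleases are secreted enzymes of eosinophils and of some macrophages. *Ear2*, the brightest of them, read -0.28 to 3.79 (median 0.63) without *Fcgr2b* and -3.29 to -0.73 (median -2.58) with it. It was well above background on all 16 arrays, and its difference was 3.45 (SE 0.54, adjusted p = 0.0201 in limma). *Ear1* differed by 3.77 (SE 0.56), *Rnase2a* by 3.58 (SE 0.55) and *Ear10* by 3.17 (SE 0.52), with adjusted p-values in limma of 0.0131, 0.0173 and 0.0275. Each of the 3 was well above background on all 8 arrays lacking *Fcgr2b* and on 4 of the 8 carrying it. No array overlapped between the groups for any of the 4 genes. These genes belong to 1 family of related sequence, so 1 transcript may bind the probes of several, and the 4 are not 4 independent changes. Probe and transcript sequences were not compared here.

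The likeness of these genes extended to the sequence before them. The promoter windows of *Ear1*, *Ear2*, *Ear10* and *Rnase2a* are shown because the genes moved together, and that of *Clec4e* as a called gene from another family with the same motif. Each runs from 250 bases before the start of the gene to 50 bases after it (RefSeq, GRCm38.p6), 5′ to 3′ on the gene's strand. Capitals mark matches to TTGCNNAA, a C/EBP motif, on either strand. They lie at chr14:43819590-43819889 on the minus strand, chr14:44102404-44102703 on the plus strand, chr14:43923547-43923846 on the minus strand, chr14:51256063-51256362 on the minus strand and chr6:123289822-123290121 on the minus strand.
Ear1: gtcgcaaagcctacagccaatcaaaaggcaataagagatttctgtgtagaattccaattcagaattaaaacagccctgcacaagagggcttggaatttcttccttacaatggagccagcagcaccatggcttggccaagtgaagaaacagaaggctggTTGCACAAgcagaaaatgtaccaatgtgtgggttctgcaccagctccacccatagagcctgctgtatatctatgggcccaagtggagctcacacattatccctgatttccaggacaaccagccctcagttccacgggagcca
Ear2: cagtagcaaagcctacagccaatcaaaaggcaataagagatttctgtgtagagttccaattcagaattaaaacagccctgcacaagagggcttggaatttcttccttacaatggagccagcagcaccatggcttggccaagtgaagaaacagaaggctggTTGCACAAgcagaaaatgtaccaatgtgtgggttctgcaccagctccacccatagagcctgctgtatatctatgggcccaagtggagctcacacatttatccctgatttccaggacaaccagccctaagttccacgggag
Ear10: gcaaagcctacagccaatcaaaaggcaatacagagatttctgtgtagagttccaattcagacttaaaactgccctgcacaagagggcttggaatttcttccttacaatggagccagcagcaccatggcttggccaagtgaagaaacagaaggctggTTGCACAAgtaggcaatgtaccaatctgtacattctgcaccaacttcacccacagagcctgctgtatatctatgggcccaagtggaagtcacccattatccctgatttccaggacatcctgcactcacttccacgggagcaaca
Rnase2a: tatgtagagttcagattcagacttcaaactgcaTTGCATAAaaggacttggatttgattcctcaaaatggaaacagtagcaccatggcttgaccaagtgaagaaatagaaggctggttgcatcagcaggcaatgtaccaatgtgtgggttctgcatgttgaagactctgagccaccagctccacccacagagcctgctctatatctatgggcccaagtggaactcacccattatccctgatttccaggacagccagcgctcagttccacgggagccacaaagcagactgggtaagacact
Clec4e: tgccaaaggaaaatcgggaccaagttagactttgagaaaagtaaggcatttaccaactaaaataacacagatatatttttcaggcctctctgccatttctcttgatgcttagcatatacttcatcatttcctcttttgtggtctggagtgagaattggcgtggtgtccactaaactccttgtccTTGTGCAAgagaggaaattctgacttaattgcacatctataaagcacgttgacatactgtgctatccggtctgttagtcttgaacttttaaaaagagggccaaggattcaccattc

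At the best ungapped offset, the window of *Ear1* was 89.9% identical to that of *Ear2* and 85.9% identical to that of *Ear10*, and *Ear2* and *Ear10* were 77.7% identical. *Rnase2a* was 59.2% to 59.8% identical to the other 3, at offsets of 40 to 44 bases. Offsets of up to 100 bases either way were tried. The C/EBP motif began at -92 in *Ear1*, -90 in *Ear2*, -94 in *Ear10*, -217 in *Rnase2a* and -66 in *Clec4e*. Of the 15 called genes 6 held the motif in a window, the sixth being *Apoa2*, which was lower without *Fcgr2b*. Over all 32851 windows of the same length 10.8% held it. The shares here are per window, while a called gene counted if any of its windows matched. The ribonucleases among the 6 are related in sequence, so they are not separate hits. The interferon-stimulated response element, searched on both strands as GAAA followed, after any 2 bases, by GAAA, was in 0 of the 15 genes and in 3.44% of all windows. The PU.1 motif GAGGAAG was in 0 of the 15 genes and in 13.6% of all windows. A match is only a run of letters, and C/EBP binding was not measured.

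*Ifi202b* was called by both of its probes. They read -1.61 to 2.98 (median -0.43) and -1.47 to 3.27 (median -0.31) on the arrays lacking *Fcgr2b*. On WT arrays the first probe lay at -7.29 to -6.40, none of them well above background, so the Fcgr2b-ko arrays were at least 47.5-fold higher than WT by that probe and at least 53.7-fold higher by the other. The Sting-ko arrays split, with replicates 1 and 3 at -7.06 and -6.53 and replicates 2 and 4 at -2.09 and -3.20. All arrays lacking *Fcgr2b* still lay above these. The pooled difference was 5.92 (SE 0.83, adjusted p = 0.0118 in limma). Without Sting-ko replicates 2 and 4, 0 of the 6 arrays carrying *Fcgr2b* were well above background, and by the same probe the rise was at least 29.3-fold. Those 2 arrays were left out partly for their *Ifi202b* signal, so for this gene the refit is no separate support. *Ifi202b* is a known strain difference between 129 and C57BL/6 mice.

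The 3 named genes that were lower all lie on chromosome 1, as *Fcgr2b* does. *Cfap126*, a protein of motile cilia, read -0.85 to 0.34 (median -0.31) without *Fcgr2b* and 0.79 to 2.60 (median 1.96) with it. The groups did not overlap, and the difference was -2.21 (SE 0.26, adjusted p = 0.00271 in limma). A second probe of *Cfap126* was called at -2.04 (SE 0.30, adjusted p = 0.0131 in limma). *Dusp23*, a small dual-specificity phosphatase, read -2.76 to -0.21 (median -1.03) against 0.05 to 2.29 (median 1.55), a difference of -2.67 (SE 0.39, adjusted p = 0.0131 in limma).

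*Apoa2*, an apolipoprotein of high-density lipoprotein, differed between its 2 probes. The called probe read -6.82 to -1.60 (median -3.10) without *Fcgr2b* and -0.46 to 1.65 (median 0.84) with it, a difference of -3.87 (SE 0.62, adjusted p = 0.0245 in limma). The brighter probe read 1.51 to 3.24 against 2.67 to 3.80, overlapped between the groups, and gave -0.51 (SE 0.25, unadjusted p = 0.0591 in limma). The brighter probe was not called. Among the probes without a symbol, 2 were lower, the larger being ENSMUST00000111315 at -4.38 (SE 0.58, adjusted p = 0.00757 in limma), and 3 were higher, of which BC145377 differed by 2.69 (SE 0.40, adjusted p = 0.0131 in limma).

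The size of the rises was compared between the *Sting* genotypes over the probes that had an array well above background in each of the 4 genotypes. These were 8 of the 16 probes that were higher, among them *Fpr2*, *Cd300e*, *Treml4* and the 4 ribonucleases. They differed by 3.62 to 5.17 between Fcgr2b-ko and WT and by 1.79 to 2.80 between double-deficient and Sting-ko mice, with the first larger for 8 of 8. Of those named, only *Ear2* and *Treml4* were well above background on all 16 arrays. *Fpr2* was so on 1 of 4 WT and 2 of 4 Sting-ko arrays. *Ear1*, *Rnase2a* and *Ear10* were so on 2 of 4 of each, and *Cd300e* on 3 of 4 of each. The sizes given for these genes therefore rest partly on signals at background. For the other 8 of the 16 probes at least 1 genotype was at background, so their sizes were not compared. The falls were larger with *Sting* unchanged for 4 of 6 probes. For *Ear2* the differences in the 2 *Sting* genotypes were 4.56 and 2.34, for *Dusp23* -2.64 and -2.71 and for *Cfap126* -2.47 and -1.95. The interaction was called for 0 of 35629 probes, its smallest adjusted p in limma being 0.661, while 2234 probes had an unadjusted p under 0.05 (6.27%). The unadjusted p of the interaction was under 0.05 for 7 of the 22 probes, and none passed the adjusted test.

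The Fcgr2b-ko group was spread widely for the genes that were higher. Fcgr2b-ko replicates 1 and 4 read 2.31 and 0.92 for *Clec4e*, and replicates 2 and 3 read -1.84 and -1.34, close to the -2.37 to -1.70 of the double-deficient arrays. *Ear2* followed the same order, at 3.79 and 3.25 in replicates 1 and 4, 1.14 and 0.75 in replicates 2 and 3, and -0.28 to 0.51 in the double-deficient mice. Replicates 1 and 4 were also the highest of the 16 arrays for *C1qa*, at 3.68 and 4.14. The interferon-inducible *Isg15* read 3.97 and 3.59 there and 0.98 to 2.03 on the other arrays lacking *Fcgr2b*.

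Within each *Sting* genotype alone the tests differed in what they called. Between Fcgr2b-ko and WT 18 probes were called (0.0505%), 17 higher and 1, of *Cfap126*, lower. Between double-deficient and Sting-ko 0 probes were called, the smallest adjusted p in limma being 0.223, and 1085 had an unadjusted p under 0.05 (3.05%). All 22 probes of the pooled comparison had an unadjusted p under 0.05 in each, where 1192 probes did so with *Sting* unchanged (3.35%). The pooled test chose the 22 on these same arrays, so this is no separate support. The number of calls, 18 on all arrays, changed when single arrays were left out. It fell to 0 without Fcgr2b-ko replicate 4 or WT replicate 2, 3 or 4, and to 3 without Fcgr2b-ko replicate 1. It fell to 5 without Sting-ko replicate 2 or any 1 double-deficient array, and rose to 37 without Fcgr2b-ko replicate 2. The Sting-ko and double-deficient arrays lie outside this contrast and enter only its estimate of the spread. Why calls were lost was not tested. The 2 genes called only with *Sting* unchanged were *Itln1* and *Pou2f2*. *Itln1*, an intelectin 63 genes from *Fcgr2b*, was at least 3.65-fold higher (adjusted p = 0.0484 in limma). *Pou2f2*, a lymphocyte transcription factor, differed by 2.27 (SE 0.36, adjusted p = 0.0344 in limma). In the double-deficient mice *Itln1* was at least 1.62-fold higher and *Pou2f2* differed by 0.28. The unadjusted p of *Itln1* there was 0.0183 in limma, and its adjusted p in the pooled fit was 0.0828.

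The 2 *Sting* genotypes share no array, so probes chosen in one were read in the other. Their mice may still not be independent. Fcgr2b-ko replicate 3 shares its animal-label number with double-deficient replicate 4, and Fcgr2b-ko replicate 4 with double-deficient replicate 3. What this adds to the likeness of the readings was not tested. In a fit of the 8 arrays with *Sting* unchanged, 28 probes had an unadjusted p under 0.001 and a 2-fold difference. Of these 28 had the same sign in the Sting-ko arrays, 23 were 2-fold there and 23 had an unadjusted p under 0.05, with a median of 2.22 against 4.03 where they were chosen. Of 22 probes chosen in the Sting-ko arrays, 21 had the same sign with *Sting* unchanged and 20 had an unadjusted p under 0.05. Among all probes, in the fit of all arrays, 3.05% had such a p in Sting-ko mice and 3.35% with *Sting* unchanged. The strain label differs in both, so these readings do not separate strain from genotype. Over all 35629 probes the 2 differences ran against each other, with a correlation of -0.32 across probes, and 31.0% of probes had the same sign. Slides and Y-linked signal were unbalanced in opposite ways in the 2 *Sting* genotypes. The correlation was -0.25 with Y-linked signal as a covariate, -0.34 with the slide and -0.28 with both. The cause of the correlation was not tested.

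**Figure D2:**
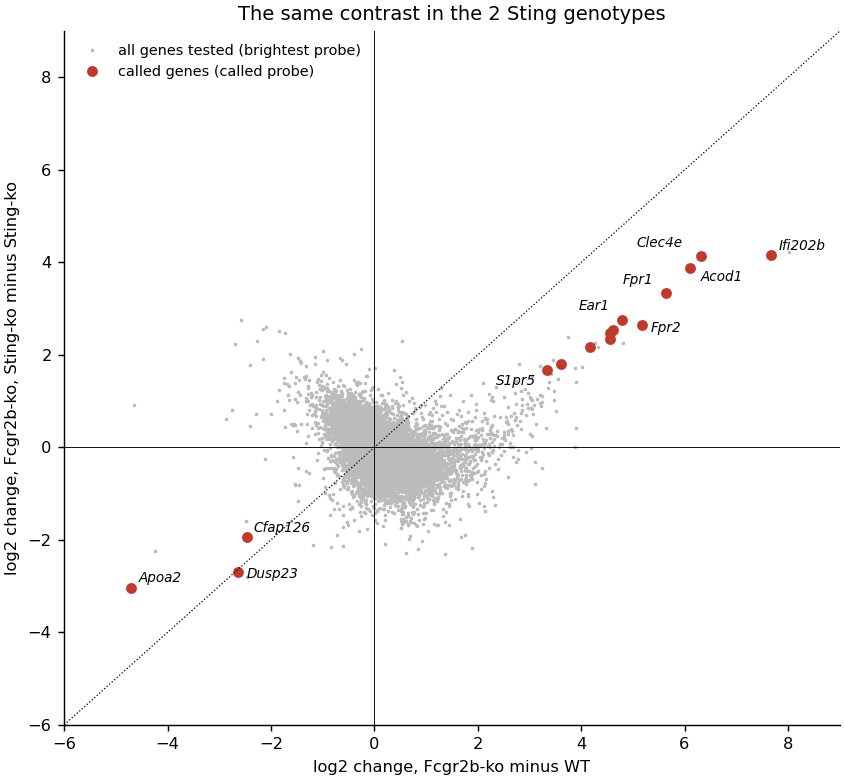
Log2 change of each gene without *Fcgr2b* where *Sting* is unchanged (horizontal axis) against the change in Sting-ko mice (vertical axis), for 16397 genes by their brightest probe (gray) and for the 15 called genes by their called probe (red, 10 of them named). Values are fitted, also where a genotype was at background (8 of the 16 rises). The called rises lie below the dotted line of equal change, and the gray cloud slopes downwards, with a correlation of -0.32 over all probes.

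Beyond the called probes, 48 probes had an unadjusted p under 0.05 in both *Sting* genotypes in the same direction (0.135%), 31 higher and 17 lower, and 26 in opposite directions (0.073%). The 22 called probes were among the 48. The other 26 stood for 20 named genes, which were chosen here after their values were seen and did not pass the adjusted test. *Clec4d*, the lectin partner of Mincle, differed by 3.53, *Ms4a6d* by 3.27, *Adgre4* by 3.07 and *Lyz2*, lysozyme of myeloid cells, by 2.48 (adjusted p-values in limma of 0.155, 0.114, 0.183 and 0.464). *Il1rn*, the interleukin-1 receptor antagonist, was at least 3.11-fold higher, and *Gpr84*, a fatty acid receptor, at least 2.65-fold higher (adjusted p = 0.114 and 0.107 in limma). *Meox2*, a homeobox factor of vascular cells, gave -2.63 and *Ppox*, an enzyme of heme synthesis near *Fcgr2b*, gave -0.83 (adjusted p = 0.114 and 0.513 in limma).

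The genes on either side of *Fcgr2b* were read as a group because the strain label differs with the genotype. Of the 147 genes tested among the 200 on either side of it, itself included, 26 had an unadjusted p under 0.05 (17.7%), 14 higher and 12 lower, against 308 of all 16397 genes (1.88%). Within 50 genes the count was 14 of 37 (37.8%), beyond 50 and up to 100 genes 6 of 45 (13.3%) and beyond 100 and up to 200 genes 6 of 65 (9.23%). Further out it was 5 of 131 beyond 200 and up to 400 genes (3.82%), 6 of 665 on the rest of the chromosome (0.902%) and 271 of 15454 on other chromosomes (1.75%). A called probe was found for 4 of the 147 genes, *Cfap126*, *Apoa2*, *Dusp23* and *Ifi202b*, which lie 33, 40, 111 and 150 genes from *Fcgr2b*, and for 11 of the 15454 on other chromosomes. Without Sting-ko replicate 4 the 4 genes became 7.

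The differences next to *Fcgr2b* ran in both directions. The uncharacterized 3110045C21Rik, 23 genes away on the other side, read -5.24 to -1.59 without *Fcgr2b* and -1.77 to 1.78 with it, a difference of -3.24 (SE 0.57, adjusted p = 0.0523 in limma). *Fcer1g*, the common signaling chain of activating Fc receptors, gave 1.54 (unadjusted p = 0.00848 in limma), and *Fcrla*, a B cell Fc receptor-like protein 3 genes from *Fcgr2b*, gave -1.32 (unadjusted p = 0.0125). Neither was called. *Fcgr2b* genotype and the strain of the flanking region cannot be told apart in these groups.

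**Figure D3:**
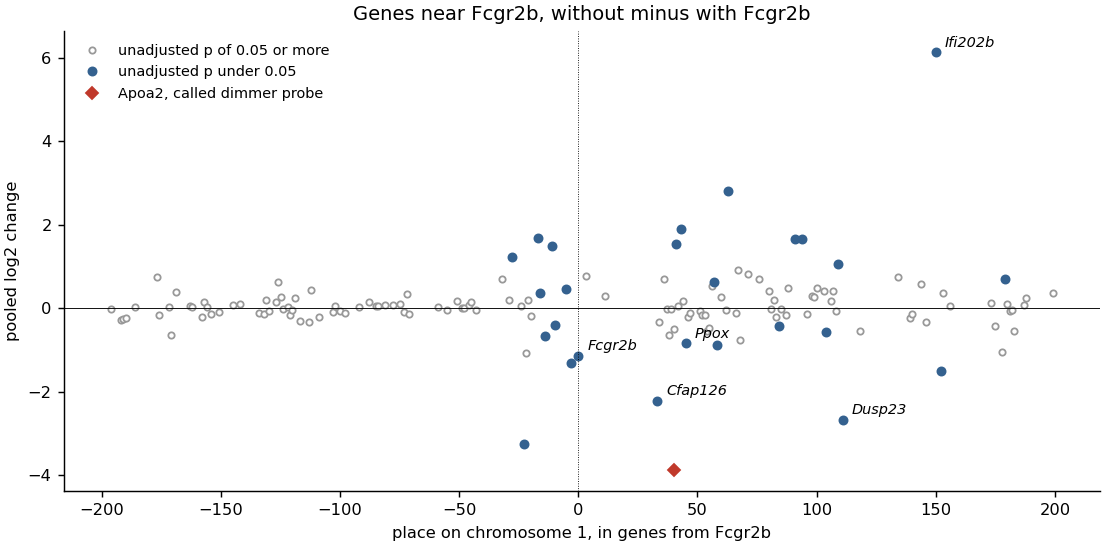
Pooled log2 change without *Fcgr2b* (vertical axis) of the 147 genes tested by their brightest probe, by their place in genes from *Fcgr2b* on chromosome 1 (horizontal axis). Filled points have an unadjusted p under 0.05 (26 genes), open points do not, and the diamond is the called, dimmer probe of *Apoa2*. Large changes of both signs cluster within about 50 genes and again at *Dusp23* and *Ifi202b*.

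Of 26 measured genes of monocytes and macrophages, 5 were called higher and 0 lower (*Clec4e*, *Acod1*, *Fpr1*, *Cd300e*, *Treml4*), against 13 of 16397 genes by brightest probe (0.0793%). *Acod1* and *Fpr1* were tested only because they were high on the arrays lacking *Fcgr2b*, and of the 24 members with signal on an array carrying it 3 were called. Several of these genes were put on the list knowing earlier results, so neither the counts nor the median of this list is independent evidence. In all 15 of 26 had an unadjusted p under 0.05, all higher, against 1.46% of genes. The complement genes *C1qa*, *C1qb* and *C1qc* of resident macrophages differed by 1.35, 1.39 and 1.28, *Cd68* by 1.24 and *Adgre1* by 1.57, with none called. *Itgam* gave -0.61, *Ly6c2*, a marker of classical monocytes, 0.03 and *Ccr2* 0.36. The median over the list was 1.31, beside -0.001 over all genes, and was 2.29 with *Sting* unchanged and 0.31 in Sting-ko mice. The median signal of the list was 0.08 to 2.83 on the arrays lacking *Fcgr2b* and -1.10 to 0.59 on those carrying it.

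**Figure D4:**
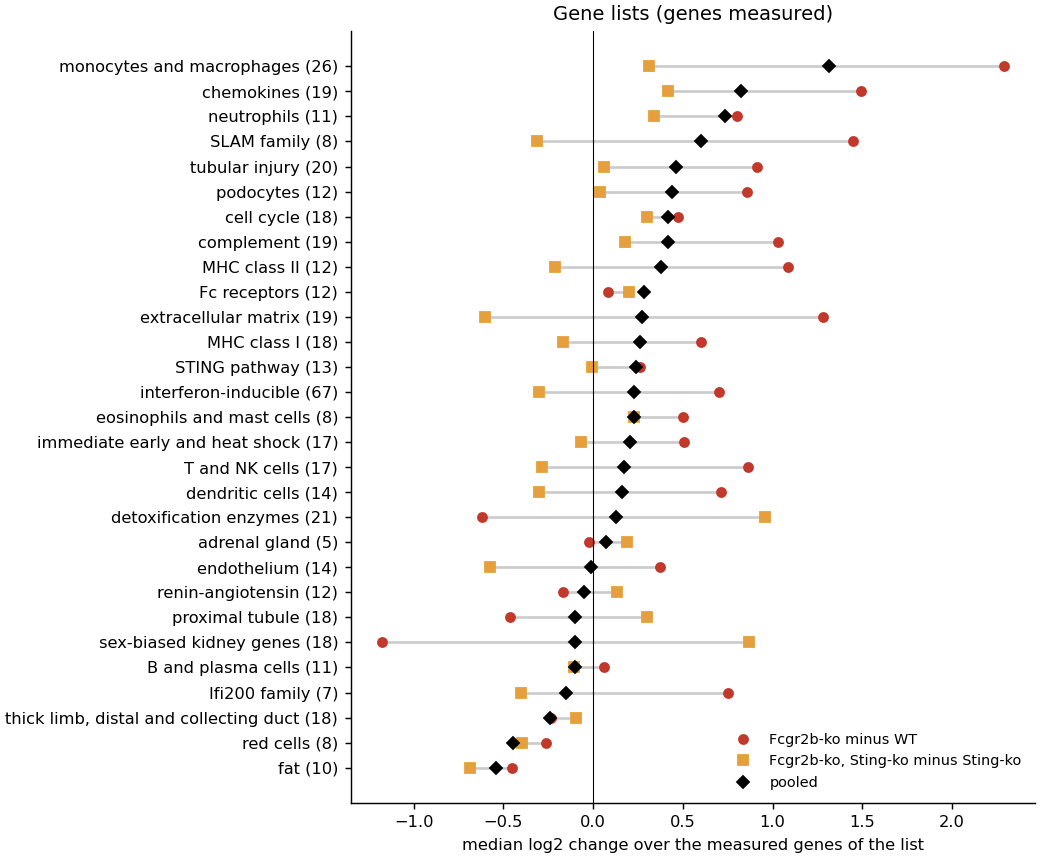
Median log2 change without *Fcgr2b* over the measured genes of each list (horizontal axis), with the number of genes measured in brackets, pooled (diamonds) and within each *Sting* genotype. The median of monocytes and macrophages, several of which were listed knowing earlier results, is 1.31 pooled. The interferon-inducible median is 0.70 with *Sting* unchanged and -0.30 in Sting-ko mice.

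Among the other leukocyte lists the eosinophil and mast cell list had 3 of 8 genes called, against 0.0793% of all genes by brightest probe. All 3 were higher, the related ribonucleases *Ear1*, *Ear2* and *Ear10*. Its other tested members stood apart from these, with *Il5ra*, the interleukin-5 receptor of eosinophils, at -0.28 and *Ear6* at 0.02. The mast cell genes *Cma1*, *Tpsb2* and *Kit* gave 0.35, 0.10 and 0.06. The eosinophil genes *Epx*, *Prg2*, *Siglecf* and *Ccr3* were among the 14 listed but not among the 8 tested. No gene of the neutrophil, T and NK cell, B and plasma cell or dendritic cell lists was called. The smallest unadjusted p-values in limma were 0.00737 for *Camp* (0.73) of neutrophils, 0.0237 for *Gzmb* (1.08) of cytotoxic cells, 0.0125 for *Fcrla* (-1.32) of B cells and 0.0347 for *Itgax* (1.35) of dendritic cells. The medians were 0.73 over 11 neutrophil genes, 0.17 over 17 T and NK cell genes, -0.10 over 11 B and plasma cell genes and 0.16 over 14 dendritic cell genes.

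Chemokines had values above 0 in 18 of 19 genes, where 8144 of all 16397 genes did (49.7%). Of the 19, 8 had an unadjusted p under 0.05, all higher, against 1.46% of all genes, and 0 were called, with a median of 0.82. With *Sting* unchanged 11 of the 19 had an unadjusted p under 0.05, against 4.38% of all genes. In Sting-ko mice 1 of the 19 did, against 2.47%, and the medians were 1.49 and 0.42. *Cxcl13*, which draws B cells into follicles, had the smallest p, and read -3.80 to -0.60 (median -2.37) against -6.59 to -2.53 (median -5.08) with overlap. Its difference was 2.67 (SE 0.60, adjusted p = 0.368 in limma), 3.46 with *Sting* unchanged and 1.89 in Sting-ko mice. *Ccl3* gave 2.39 and *Ccl2*, the chief attractant of monocytes, 1.96. Complement genes had 4 of 19 with an unadjusted p under 0.05, all higher, against 1.46% of all genes, and a median of 0.41. Among the 4 were *C1qa*, *C1qb* and *C1qc*, which the list of monocytes and macrophages also holds. With *Sting* unchanged 7 of the 19 complement genes had such a p and in Sting-ko mice 0 did, with medians of 1.03 and 0.18.

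The medians of the interferon-inducible list had opposite signs in the 2 *Sting* genotypes. The median over 67 genes was 0.23 pooled, 0.70 with *Sting* unchanged and -0.30 in Sting-ko mice. In the pooled fit 0 of the 67 genes were called in limma and 0 had an unadjusted p under 0.05. With *Sting* unchanged 10 of the 67 had an unadjusted p under 0.05, all higher, against 4.38% of all genes, and in Sting-ko mice 0 did, against 2.47%. The interaction had an unadjusted p under 0.05 for 9 of the 67, against 7.07% of all genes, and was called for none. *Oas1a*, an antiviral enzyme, differed by 1.86 with *Sting* unchanged and by -0.59 in Sting-ko mice, and *Isg15* by 1.09 and -0.58. *Cxcl10*, which draws activated T cells, came closest at 0.82 (SE 0.39). *Isg15* read 0.98 to 3.97 (median 1.81) without *Fcgr2b* and 0.999 to 2.97 (median 1.93) with it. The Ifi200 family, which lies near *Fcgr2b*, had *Ifi202b* called of 7 genes measured, while *Ifi205* gave -1.50, *Ifi204* 0.57 and *Aim2* 0.74. In the STING pathway the smallest p was that of *Ikbke*, a kinase that activates interferon regulatory factors, at 1.19 (SE 0.32, unadjusted p = 0.00186), with *Cgas* at 0.44 and *Irf3* at -0.17. MHC class I and class II genes had medians of 0.26 and 0.38, with *H2-Q10* at 0.56 and *Ctss* at 1.35 having the smallest p of each list and none called. *Slamf8* had the smallest p of the SLAM family at 1.06. The Fc receptor list, which holds *Fcgr2b*, had 0 of 12 genes called and a median of 0.28.

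No gene of the lists for the kidney's own cells was called in the pooled comparison, by limma. The proximal tubule list had a median of -0.10 over 18 genes with 0 called, and *Kap*, an androgen-dependent tubule protein, gave -0.17. The thick limb, distal and collecting duct list had a median of -0.24, with *Kcnj1* at -0.41, the podocyte list 0.44, with *Synpo* at 0.62, and the endothelial list -0.01, with *Icam1* at 0.61. Tubular injury genes had a median of 0.46 over 20 genes and *Havcr1*, the kidney injury molecule, gave 1.84 (SE 0.68). The matrix list had a median of 0.27, with *Timp1* at 1.37. Several pooled medians joined unlike values. With *Sting* unchanged and in Sting-ko mice the medians were 1.28 and -0.60 for matrix, 0.91 and 0.06 for tubular injury, 0.37 and -0.58 for endothelium and 1.09 and -0.21 for MHC class II, and *Timp1* gave 2.79 and -0.05. The cell cycle list had values above 0 in 18 of 18 genes, against 49.7% of all genes, with a median of 0.42, of which *Cdk1*, at 1.005, had an unadjusted p under 0.05. None of these genes was called.

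The remaining lists had 0 genes called apart from *Ifi202b*, which is on the list of strain differences. On that list *Ren2* gave -0.08, *Nlrp1b* 0.18 and *Klra8* 0.46. *Cyp24a1* (1.03) had the smallest p of the detoxification list, *Enpep* (0.36) of the renin-angiotensin list, *Hba-a2* (-0.49) of red cells, *Plin1* (-0.99) of fat, *Mc2r* (0.42) of the adrenal gland, *Nr4a1* (1.17) of early and heat shock genes, *Per1* (0.38) of the clock and *Xist* (-0.26) of the X and Y genes. Sex-biased kidney genes had a median of -1.18 with *Sting* unchanged and 0.87 in Sting-ko mice, and -0.10 pooled.

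Within each slide all 22 probes, which were chosen on the same arrays, kept their direction at 2-fold or more. The 16 rises were 2.49 to 6.98 on the first slide and 2.25 to 5.28 on the second. The falls were -4.09 to -1.85 and -5.004 to -2.23. Without Sting-ko replicates 2 and 4, 15 probes were called, 12 of the 22 among them, 7 higher and 5 lower. *Ear1*, *Ear2*, *Ear10*, *Rnase2a*, *Fpr2*, *Treml4* and *S1pr5* were then not called, with adjusted p-values in limma of 0.0807 to 0.208 and differences of 2.56 to 4.05.

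The rises depended on the treatment of dim signal. With normexp background correction 5 probes were called, 0 higher and 5 lower, of *Cfap126*, *Apoa2*, *Dusp23* and XR_399068. There *Clec4e* differed by 2.26 (adjusted p = 0.16). Among probes well above background on all 16 arrays 5 were called, the single rise being *Ear2*. With the animal label as a random block 3 were called, and the adjusted p in limma was 0.0806 for *Fpr1*, 0.221 for *Ear2*, 0.398 for *Ear1* and 0.365 for *Cd300e*. Leaving out 1 array gave 12 to 26 calls, with 12 without WT replicate 2, WT replicate 4 or Sting-ko replicate 3 and 14 without WT replicate 3.

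**Figure D5:**
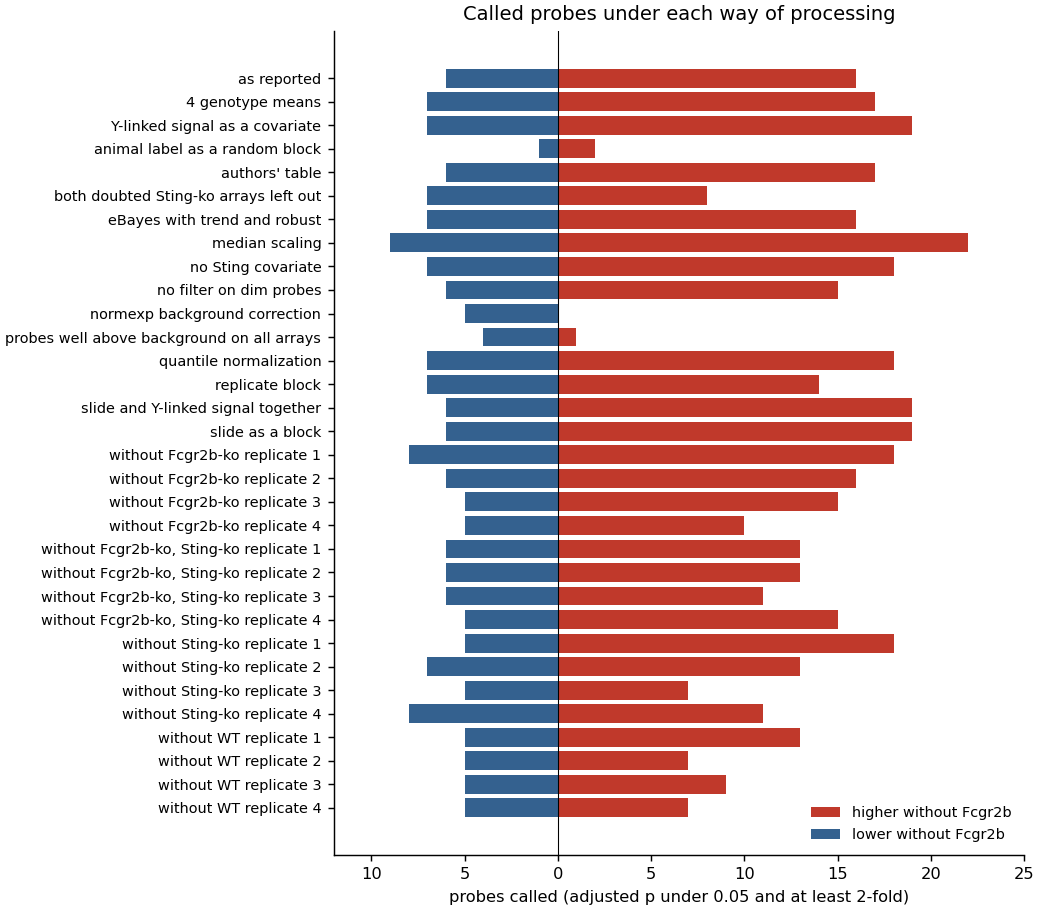
Number of called probes higher (red, to the right) and lower (blue, to the left) without *Fcgr2b* under each way of processing. The reported setting gives 16 and 6, normexp background correction gives 0 and 5, and a random block on the animal label gives 2 and 1.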

How the data were processed

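Kidney RNA (100 ng) of 16 mice was labeled with Cy3 and hybridized to one-color arrays. The authors deposited the scanner files, whose processed intensities were background-subtracted by Agilent Feature Extraction 11.0, per the labels, and not scaled between arrays. A table of log2 values that the authors made from these arrays was used as an alternative, and its scaling is not given in the sources used here.

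Control and outlier spots (76 to 109 per array) were left out, spots of a probe were averaged, and log2 intensities were shifted so that the 75th percentile of each array was 0. There were 0 saturated spots. Of 56605 probes, 35629 were well above background on at least 4 of 16 arrays and were tested with limma 3.58.1 (R 4.3.3) by lmFit and eBayes, with the *Sting* genotype as a covariate. Contrasts within a *Sting* genotype and the interaction came from the means of the 4 genotypes. The study's methods name the two-tailed Mann-Whitney test, which was run as an alternative. A change against a group with no array well above background is a bound, set per array at the higher of the probe's own value and the lowest signal well above background.

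RefSeq (GRCm38.p6) gave a symbol for 58.3% of probes. It was used for names and gene order only, since the array build differs. A gene in a list is its brightest probe. Named were *Fcgr2b*, *Sting1*, the called genes (up to 12 each way), called genes within 200 genes of *Fcgr2b*, called genes of 32 lists or the smallest p of a list, and up to 5 genes called in a single *Sting* genotype. Other genes were chosen after their values were seen. The comparison, its lists and rules were chosen with earlier results of these data known. Nothing in the labels says how the mice of a group were related, and some share a number in their animal label, so p-values measure only the spread between these samples. The test was checked on simulated data. Plots were drawn with matplotlib 3.10.9 (Python 3.11.15).

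Alternatives tried were quantile and median scaling, normexp (offset 50), the authors' table, no filter or a filter on all 16 arrays, eBayes with trend and robust, 4 genotype means, no *Sting* covariate, no fold threshold, the slide, the replicate number and the animal label as blocks, Y-linked signal as a covariate, the median over the probes of a gene, other definitions of a shared change, each array left out and, added after the data were seen, slide with Y-linked signal and Sting-ko replicates 2 and 4 left out together.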

Additional observations from a re-analysis of the deposited data

Results flagged for a closer look

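Of 284 genotype groups examined for the genes named, 8 had 1 array far from the other 3, and chance alone flags about 1 group in 20. Among the called genes, *Ear10* read -2.53 in double-deficient replicate 4 and -1.85 to -1.78 in the others. *Dusp23* read 0.05 in WT replicate 1 and 1.86 to 2.17 in the other WT mice, all above the arrays lacking *Fcgr2b*. BC145377 read -4.90 in double-deficient replicate 4, against -3.48 to -3.20.

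Of the other genes, *H2-Q10* read 1.87 in double-deficient replicate 3 against 1.23 to 1.31. *Plin1*, a lipid droplet protein of fat cells, read -1.30 in Fcgr2b-ko replicate 1 against -5.77 to -5.20. *Xist* read -6.55 in Sting-ko replicate 3 against -1.39 to -0.78, and that array had a high Y-linked signal. *Ppox* read 0.72 in WT replicate 1 against 1.25 to 1.31, and *Dcstamp* read -7.33 in Sting-ko replicate 2 against -6.57 to -6.52.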

How the results depend on the processing

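The 22 calls in the pooled comparison, and the same 22 as shared changes, became 3 with the animal label as a random block, 5 with normexp and 5 with a filter on all 16 arrays, where fewer probes are tested. Shared with the 22 were 22 under quantile and median scaling, 4 genotype means, no covariate, the slide block, trend and robust, and Y-linked signal, and 21 in the authors' table. The methods' Mann-Whitney test gave 211 unadjusted (2-fold) and 0 adjusted, where 0.000155 is the smallest p of 8 against 8. With each array left out the calls were 12 to 26, shared or not, 0 to 37 with *Sting* unchanged, 0 to 1 in Sting-ko mice, 3 to 7 near *Fcgr2b* and 5 to 10 in the lists. The 18 calls with *Sting* unchanged were 8 with Y-linked signal, 3 with the animal block, 7 in the authors' table, 8 without Sting-ko replicates 2 and 4, 5 with normexp and 0 with the filter on all 16 arrays. They fell to 0 without Fcgr2b-ko replicate 4 or without WT replicate 2, 3 or 4. The 4 genes near *Fcgr2b* were 1 with the animal block and 2 with the all-array filter. The 9 listed genes were 2, 5, 0 and 1 with the animal block, without both Sting-ko arrays, with normexp and with the all-array filter. The cause of these was not tested. *Xist* turned sign, to 0.18 with the animal block, 0.57 without both Sting-ko arrays and -0.85 to 0.32 with single arrays left out.

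The replicate block gave 21 calls, 19 of them among the 22. Same-numbered mice deviated together with correlations of -0.60 to 0.69 (median -0.06), so the numbers were not taken to pair mice. Dim signal limits the rises, and *Acod1* and *Fpr1*, among others, have only a bound.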
